A study of Mus musculus with 1 sample.

Results

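The 10 genes of the AP-1 transcription factor family described here are Fos, Fosb, Fosl1, Fosl2, Jun, Junb, Jund, Atf3, Batf and Batf3, out of 18193 mouse genes measured on 1 Affymetrix array. They were taken by gene symbol, and every probe set that the platform's annotation gives to exactly 1 of them was used, which gave 14 probe sets. The array was hybridized with RNA of KR Primary, a cultured line of lung cancer cells from a KR tumor of a B6/J mouse, kept in RPMI1640 with 10% serum and harvested close to confluence. The labels do not spell out KR and state no treatment. With 1 sample of 1 group there was no condition to compare, no replicate error and no p-value, and fewer cells of a type cannot be told apart from less RNA per cell.

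AP-1 is a pair of basic leucine zipper proteins that binds DNA as a dimer. JUN proteins pair with each other or with FOS proteins, whereas FOS proteins need a JUN-type partner, and ATF3 and the BATF proteins join the same network. Growth factor and stress signals that pass through the ERK, JNK and p38 kinases switch on several of these genes within minutes and also modify the proteins, so that in RAS-driven lung tumors AP-1 is known as an end point of the pathway. Messenger RNA shows only the supply of subunits, not protein, phosphorylation or binding to DNA.

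Of the 10 AP-1 genes, 7 gave clear signal in these cells: Jund, Fos, Junb, Fosl2, Fosl1, Atf3 and Jun. Fosb and Batf3 gave weak signal that some background probe sets also reached, and Batf gave no signal above background. All 3 JUN genes and 3 of the 4 FOS genes were thus clearly detected, while neither BATF gene was. A signal is the brightness of a group of short probes in arbitrary units. It was judged against 124 probe sets of smell, taste and hair shaft genes on the same array, whose median was 6.52. Their 95th percentile, 16.8, is called the background line, and their highest signal, 60.6 for the keratin-associated gene Krtap12-1, is called the upper limit. The next highest background signal was 42.2, so the upper limit rests on 1 probe set.

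The promoters of 4 members are shown, of genes with clear signal (Fos, Jun and Atf3) and of the gene that was not above background (Batf). These are the only members with a match to the motifs below. Jund, Junb and Fosl2, also with clear signal, had no match and are not shown. Each is the 250 bases before the transcription start in RefSeq, build GRCm38.p6, written 5′ to 3′ on the gene's own strand. Capitals mark matches, on either strand, to 5 short motifs: the AP-1 element TGANTCA, the ATF and AP-1 elements TGACNTCA and TTACNTCA, the CRE core TGACGT and the TATA element TATAAA. Where an 8-base element ends in CGTCA, it overlaps TGACGT on the other strand.
Fos, chr12:85473640-85473889, plus strand: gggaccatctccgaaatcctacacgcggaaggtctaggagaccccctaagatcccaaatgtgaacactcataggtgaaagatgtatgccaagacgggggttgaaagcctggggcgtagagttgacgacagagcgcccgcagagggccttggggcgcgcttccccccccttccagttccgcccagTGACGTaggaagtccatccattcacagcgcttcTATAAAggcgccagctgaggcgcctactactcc
Jun, chr4:95052223-95052472, minus strand: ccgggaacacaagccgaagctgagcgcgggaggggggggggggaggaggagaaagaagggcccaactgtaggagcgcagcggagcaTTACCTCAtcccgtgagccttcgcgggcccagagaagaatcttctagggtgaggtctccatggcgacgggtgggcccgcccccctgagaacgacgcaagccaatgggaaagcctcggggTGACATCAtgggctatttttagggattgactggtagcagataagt
Atf3, chr1:191183334-191183583, minus strand: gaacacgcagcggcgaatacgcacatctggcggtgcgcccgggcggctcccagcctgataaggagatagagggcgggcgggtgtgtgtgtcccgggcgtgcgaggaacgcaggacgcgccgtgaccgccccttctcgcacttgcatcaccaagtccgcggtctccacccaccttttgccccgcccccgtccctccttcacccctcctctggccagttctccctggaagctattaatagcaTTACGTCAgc
Batf, chr12:85686470-85686719, plus strand: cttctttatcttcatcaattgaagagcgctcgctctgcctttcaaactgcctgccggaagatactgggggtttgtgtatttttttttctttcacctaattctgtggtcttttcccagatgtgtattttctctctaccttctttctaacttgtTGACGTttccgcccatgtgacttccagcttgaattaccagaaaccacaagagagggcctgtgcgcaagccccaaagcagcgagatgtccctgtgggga
The Fos promoter held TGACGT at -66 to -61 and TATAAA at -33 to -28, counting back from -1 at the base before the start. In Jun, TGACATCA lay at -45 to -38 and TTACCTCA at -164 to -157, both variants of the AP-1 element. The Atf3 promoter held TTACGTCA near its end, at -10 to -3, which holds the CRE core on the other strand. Batf, the gene at background, also carried TGACGT, at -98 to -93. Among 9 members with a promoter in the table, none of the other 5 (Fosb, Fosl2, Junb, Jund and Batf3) held any of the 5 motifs in these 250 bases. Fosl1 had no promoter there and was not searched. Of all 32851 promoters of the table, 6.75% held TGANTCA, which none of these 9 members had, 7.49% TGACNTCA, 2.86% TTACNTCA, 6.47% TGACGT and 12.4% TATAAA. The members' promoters were mostly rich in G and C: 7 of the 9 exceeded the table's median of 52.4%, from 58.4% in Fos to 76.0% in Batf3. The exceptions were Jund at 47.6% with 3 CpG dinucleotides and Batf at 46.4% with 7, against 27 CpG in Batf3 and a median of 6 over all promoters. Jund, with the brightest probe set of the family, and Batf, with the dimmest, therefore had the lowest G and C content. Batf, not above background, thus shared TGACGT with Fos, and in G and C content it lay below the other 8, by 1.2 percentage points from Jund. With only 1 gene at background, these promoters cannot show whether either feature goes with signal.

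Among the FOS genes, Fos itself, the classic immediate early gene whose RNA is short-lived, read 919 on its only probe set (1423100_at). This was 54.7 times the background line and higher than 93.5% of all probe sets with 1 gene name. Fosl1 encodes FRA-1, a FOS protein without the strong activation domain of FOS, and is known to be raised by sustained ERK signalling in RAS-mutant tumors. Its pair of probe sets read 471 (1417487_at) and 117 (1417488_at), both above the upper limit. Fosl2, which encodes the related FRA-2, read 564 on 1437247_at and 45.0 on 1422931_at. The first was 9.31 times the upper limit, and the second lay between the line and the limit. Fosb, best known as an activity-induced gene of neurons, read 28.3 on its only probe set (1422134_at). That is 1.68 times the line, and 2 of the 124 background probe sets were brighter, so its signal is not separated from background.

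All 3 JUN genes passed the upper limit. Jund, the JUN gene that is transcribed in most resting and growing cells, had the brightest probe set of the family at 1883 (1449117_at), higher than 97.4% of probe sets. Its other probe set (1440265_at) read 17.2, only 1.02 times the line, with 6 background probe sets above it. Junb, whose protein can restrain c-JUN in cell cycle control, read 564 on its only probe set (1415899_at). Jun encodes c-JUN, the main target of the JNK kinases, and can activate its own promoter. It read 174 (1417409_at) and 79.7 (1448694_at), so that both probe sets passed the upper limit, the dimmer of them by 1.32 times. Atf3, a stress-induced gene whose protein can repress or activate as a dimer with JUN, read 183 on its only probe set (1449363_at), 3.03 times the upper limit.

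The BATF proteins consist of little more than the zipper, lack an activation domain, and act mainly in lymphocytes and dendritic cells, with JUN proteins and the factors IRF4 and IRF8. Batf read 3.81 on its only probe set (1419410_at), and 83 of the 124 background probe sets were brighter. Batf3, required for cross-presenting dendritic cells, read 41.6 (1453076_at). It passed the line 2.47-fold but not the upper limit, and the same 2 background probe sets that exceeded Fosb also exceeded it.

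**Figure D1:**
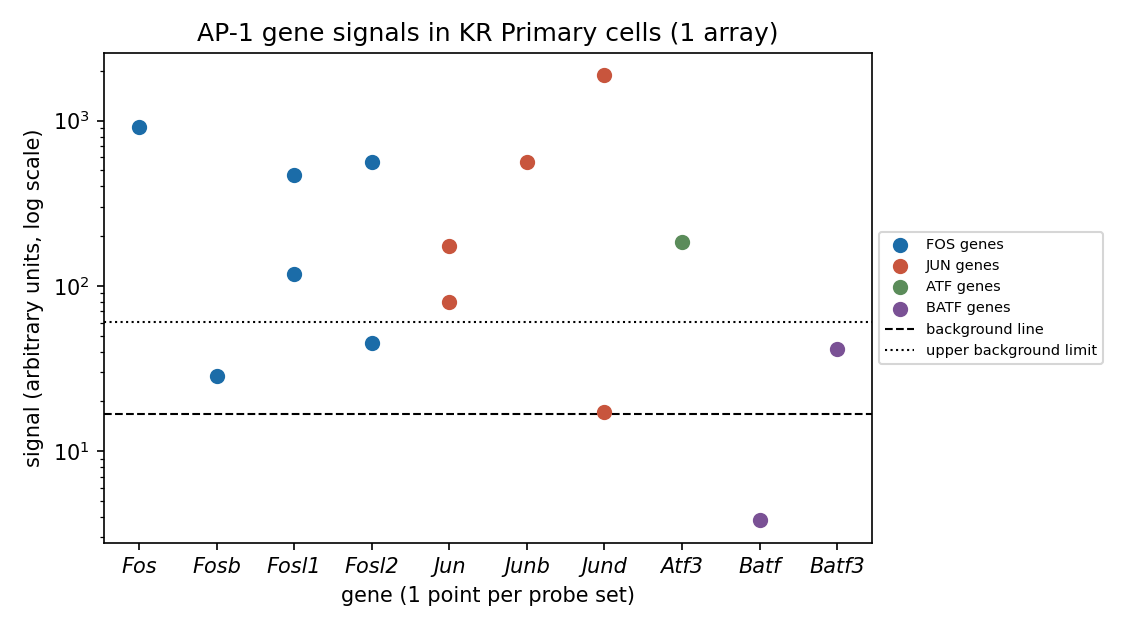
Signal of every AP-1 probe set (vertical axis, arbitrary units, log scale) by gene (horizontal axis), coloured by subfamily, with the background line at 16.8 (dashed) and the upper limit at 60.6 (dotted). Fosb and Batf3 lie between the lines, Batf at 3.81 lies below both, and the pairs of Fosl2 and Jund straddle the upper limit.

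In counts, 9 of the 10 members exceeded the line with 1 probe set or more, where 63.3% of all measured genes did. Above the upper limit were 7 of 10, where 47.5% of all genes were. Because a gene with more probe sets passes more easily, the members were also set beside genes with the same number of probe sets. Of the 6 members with 1 probe set, 5 passed the line and 3 (Fos, Junb and Atf3) the upper limit, while 48.4% and 32.6% of all genes with 1 probe set did. All 4 members with a pair of probe sets (Fosl1, Fosl2, Jun and Jund) passed both thresholds, as 72.4% and 54.8% of all genes with 2 probe sets did. The members' highest signals had a median of 327, and the median over all genes was 48.3. Where every probe set of a gene had to pass, 9 members passed the line and 5 the upper limit, as 47% and 27.3% of all genes did. These shares describe 10 genes on 1 array, and no test stands behind them.

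**Figure D2:**
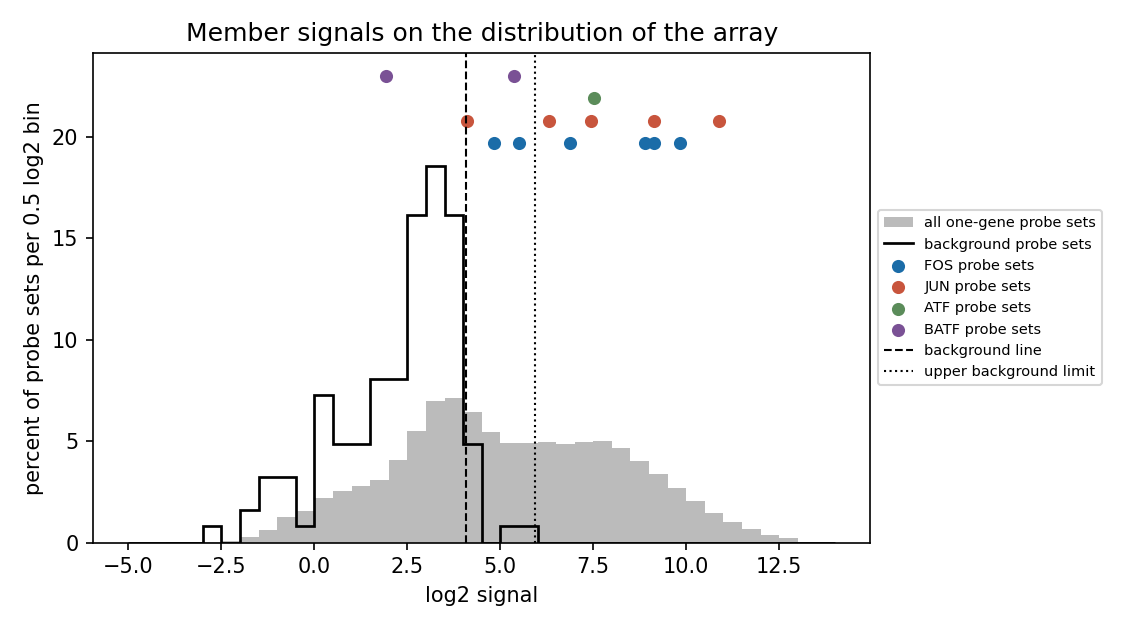
Histogram of log2 signal (horizontal axis, bins of 0.5) for all 34945 probe sets with 1 gene name (grey) and the 124 background probe sets (black outline), in percent of each set (vertical axis). The coloured points above it are the 14 AP-1 probe sets: 9 lie right of the upper limit (dotted), 4 between it and the line (dashed), and 1, for Batf, left of the line.

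The only spread within a gene that this array offers is that between its probe sets. It mixes probe brightness, transcript variants and noise, so it is not a measurement error of a signal. Among the 4695 genes with 2 probe sets, the brighter exceeded the dimmer by a median of 1.60 on the log2 scale (quartiles 0.69 and 3.10). The Jun pair differed by 1.13 and the Fosl1 pair by 2.01, within those quartiles. For Fosl2 the difference was 3.65, larger than in 81.6% of such genes. The Jund pair differed by 6.78, a 110-fold ratio and larger than in 97.5% of such genes. The bright Jund probe set is annotated to a RefSeq mRNA and the dim one to another GenBank record, whereas for Fosl2 the dim one is annotated to the RefSeq mRNA. Taking the median of each pair in place of the brighter probe set gave 235 for Fosl1, 159 for Fosl2, 118 for Jun and 180 for Jund, all above the upper limit. The differences among these 4 medians are smaller than the typical spread within a pair, and probes differ in brightness, so the order of signals between members is no order of their RNA amounts.

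**Figure D3:**
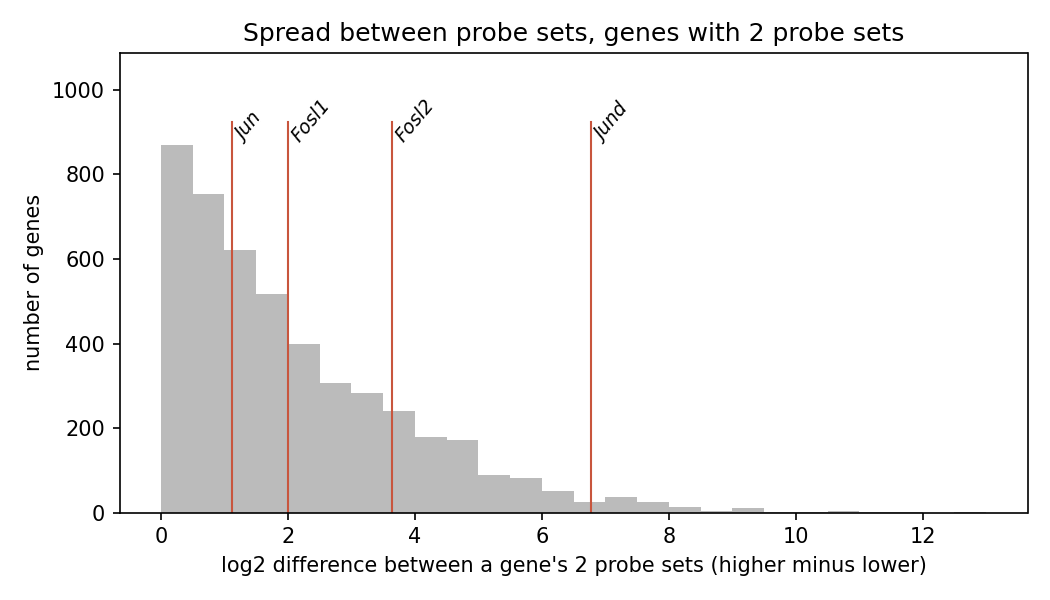
Number of genes (vertical axis) by the log2 difference between the brighter and the dimmer probe set (horizontal axis) over the 4695 genes with 2 probe sets. Red lines mark the 4 AP-1 genes with a pair: Jun at 1.13 and Fosl1 at 2.01 lie in the bulk, Fosl2 at 3.65 above the upper quartile, and Jund at 6.78 in the tail.

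Some members are close neighbours in the mouse genome, by the gene order of GRCm38.p6. On chromosome 12, Fos, Jdp2 and Batf are consecutive protein-coding genes. Jdp2, which encodes a repressive JUN dimerization partner, read 372 on 1 probe set and 7.87 on the other. This stretch thus held a gene clearly above the upper limit (Fos, 919), a gene whose probe sets disagreed (Jdp2) and a gene at background (Batf, 3.81). On chromosome 1, Atf3 at 183 and Batf3 at 41.6 are separated by 1 protein-coding gene, Fam71a.

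The other lists of basic leucine zipper genes also held both genes above the upper limit and genes not above background. Of 11 further ATF, CREB and related genes, 10 exceeded the line and 7 also the upper limit, with a median signal of 103, where 63.3% and 47.5% of all genes did. With every probe set required, the counts were 4 and 2, where 47% and 27.3% of all genes passed. Atf4, the effector of the integrated stress response, read 1527, 1134 and 1.03 on its 3 probe sets, and Atf2, a stress-kinase substrate that pairs with c-JUN, reached 1144, with each of its 5 probe sets over the line. Creb5, at 28.9 on 1 of 4 probe sets above the line, lay between the thresholds, and Batf2, the remaining BATF gene, read 11.99 and was not above background. Of 11 MAF and CNC genes, 8 exceeded the line and 7 also the upper limit, or 6 and 4 with every probe set required. They were led by Nfe2l2, which encodes the antioxidant regulator NRF2, at 2410 and 17.4 on its pair, Maff at 496 and Mafg at 402. The lowest were Nrl, a photoreceptor factor, at 9.35 and Nfe2, a blood cell factor, at 0.63. Of 5 C/EBP genes, 4 exceeded the line and 3 also the upper limit, or 3 and 1 with every probe set required. Cebpb, an inflammatory and RAS-responsive factor, reached 1131, Cebpg 271 and Ddit3, which encodes the stress factor CHOP, 69.0 on 1 probe set and 5.73 on the other, while Cebpd at 46.2 lay between the thresholds and Cebpa at 11.2 below both.

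Transcripts of the kinases that act on AP-1 were widely present. Of 19 measured genes of the JNK, p38 and ERK pathways, 18 exceeded the line and 14 also the upper limit, where 63.3% and 47.5% of all genes did. Many of these genes have several probe sets, and with every probe set required 13 passed the line and 7 the upper limit, where 47% and 27.3% of all genes did. Map2k1, the ERK-activating kinase MEK1, read 1494, Mapk13, the epithelial p38 delta, 1257 and Map2k3, a p38-activating kinase, 773. Mapk7, which encodes ERK5, read 29.9, between the thresholds, and Mapk10, the JNK gene of neurons, read at most 11.6 on its 3 probe sets. Of 12 factors known to bind the Fos or Jun promoters, 11 passed the line and 10 the upper limit, or 7 and 4 with every probe set required. Elk3, an ETS partner of SRF, reached 856, Sp1 827 and Mrtfb, an actin-regulated SRF coactivator, 562 on 1 of 3 probe sets, the others being below the upper limit, while Elk1 read at most 24.7 and Mef2c at most 9.96 on 5 probe sets. All 14 measured genes of AP-1 protein or RNA turnover and inhibition passed the line and 13 the upper limit, or 10 and 6 with every probe set required. The brightest were Zfp36l1 at 1968 and 252, Hnrnpd at 1524, 34.0 and 2.37, and Zfp36l2 at 1071, 36.1 and 24.0, which encode proteins that bind AU-rich elements in short-lived messages such as Fos. Det1, of the ligase complex that degrades c-JUN, read 117 and 25.5, and Trib1, an adaptor of COP1, 51.6 and 16.4 on its pair. All 10 coactivator and BAF remodelling genes exceeded the line and 9 also the upper limit, but only 5 and 4 with every probe set required. Cops5, a c-JUN coactivator and signalosome subunit, read 1281 on 1 probe set and 7.65 on the other. The remodelling genes Smarca4 and Smarcc1 reached 878 and 788, with 1 of the 4 Smarcc1 probe sets at 3.28. The dimmest were Ncoa1, at most 64.5, and Smarcd1, at 26.7 and 1.52. Of the YAP, TAZ and TEAD genes, whose proteins bind enhancers together with AP-1, 5 of 6 passed both thresholds. With every probe set required, 5 passed the line and 4 the upper limit, as the dimmer Tead1 probe set read 54.0. Yap1 read 759, Tead1 696, Wwtr1 678, Tead4 221 and Tead3 71.2 on their brightest probe sets, while Tead2 read 7.14.

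**Figure D4:**
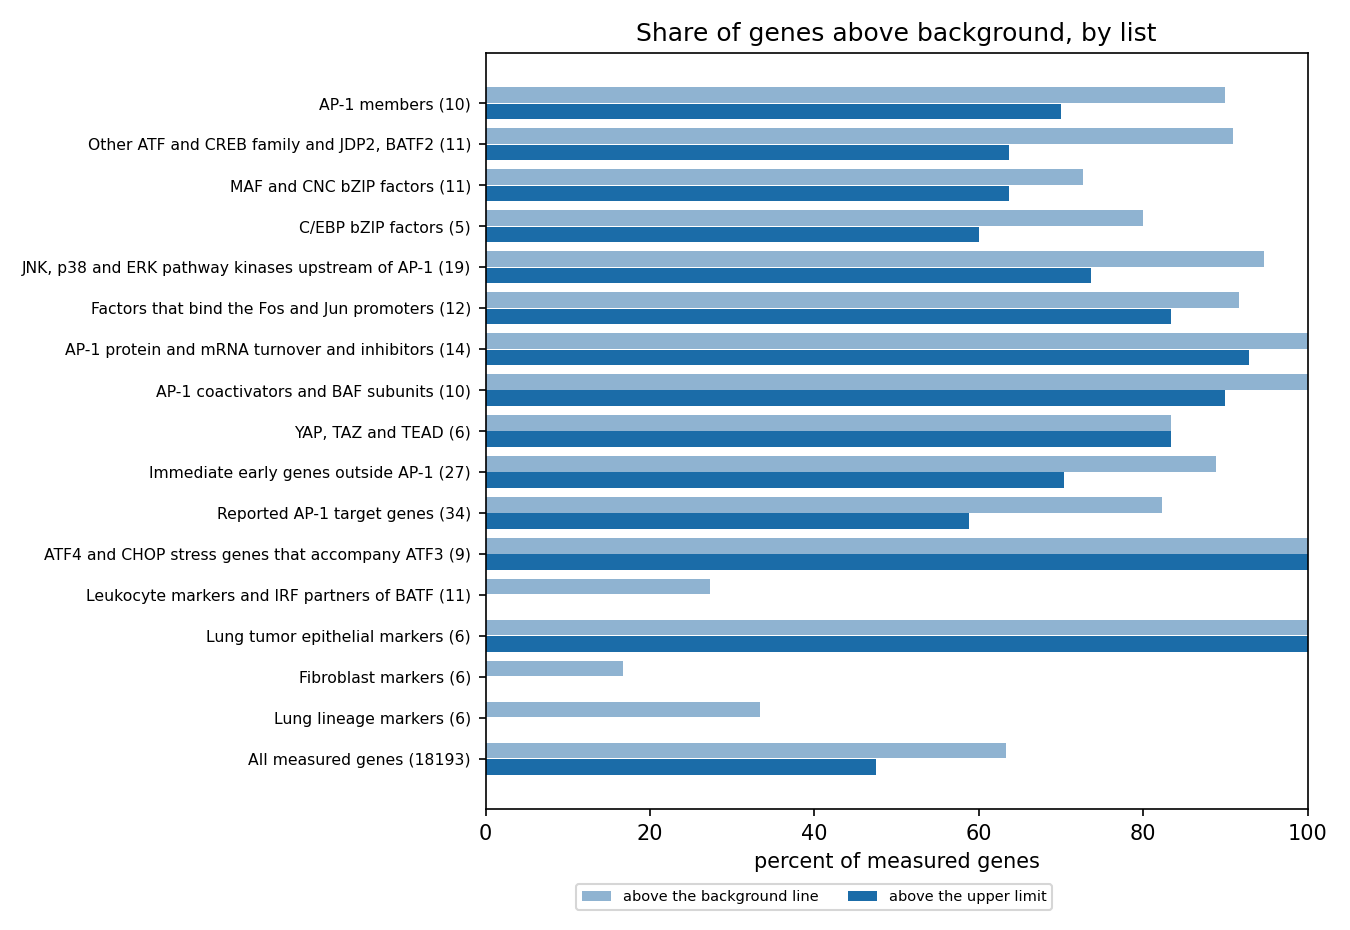
Percent of measured genes (horizontal axis) above the background line (light bars) and above the upper limit (dark bars), for the AP-1 genes, 15 related lists and all measured genes, with the number measured in brackets. AP-1 stands at 90% and 70% and all genes at 63.3% and 47.5%, and the leukocyte, fibroblast and lung lineage lists have no gene above the upper limit.

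Of 27 genes of the same immediate early class as Fos, outside AP-1, 24 passed the line and 19 the upper limit, where 63.3% and 47.5% of all genes did. Ccn2 at 3344 and Ccn1 at 1337, both matricellular YAP and SRF targets, Ier3 at 2823, Myc at 1195 and Klf6 at 1138 were the brightest, and all 4 Ccn1 and all 5 Klf6 probe sets passed the upper limit. Arc, a synaptic activity gene, at 19.9 lay just above the line. The genes not above background were Egr2 at no more than 6.60, Nr4a3 at no more than 3.70 and Npas4, a neuronal activity gene, at 2.12.

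Genes reported elsewhere as AP-1 targets were above the line in 28 of 34 measured cases (82.4%) and above the upper limit in 20 (58.8%). Beside the first share stand 63.3% over all genes and 72.4% over genes with 2 probe sets. The second share lies near that of all genes (47.5%) and of genes with 2 probe sets (54.8%). The brightest were Krt18, Clu, Ezr, Ccnd1 and Cd44. Krt18, an epithelial keratin, read 7600.2, and Clu, encoding the chaperone clusterin, 6952. Ezr, encoding the membrane linker ezrin, read 5044 on 1 probe set and 149 on the other. Ccnd1, encoding cyclin D1, read 4340. Cd44, encoding a receptor for hyaluronan, read 2545 on the brightest and 1.74 on the dimmest of 4 probe sets. At the other end, the gelatinase gene Mmp9 read at most 6.61, Dmp1, a mineralized tissue gene, at most 3.63, Il6, an inflammatory cytokine gene, 1.59 and Sprr1b, a cornified envelope gene, 0.77. The reported targets were therefore not uniformly present, and each has other regulators, so their signals are not a readout of AP-1 activity. Of the genes of the ATF4 and CHOP stress response, in which ATF3 is also induced, all 9 passed both thresholds, with a median of 134. The shares over all genes were 63.3% and 47.5%. With every probe set required, the counts were 8 and 7, beside 47% and 27.3% of all genes. Vldlr exceeded the upper limit on only 1 of its 6 probe sets, at 219, and the next read 52.8. Ddit4 read 1597, the asparagine synthetase gene Asns 870 and Herpud1 275 on their brightest probe sets. The lowest were Chac1 at 86.4 and the cystine transporter gene Slc7a11 at 66.5 and 59.7 on its pair.

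**Figure D5:**
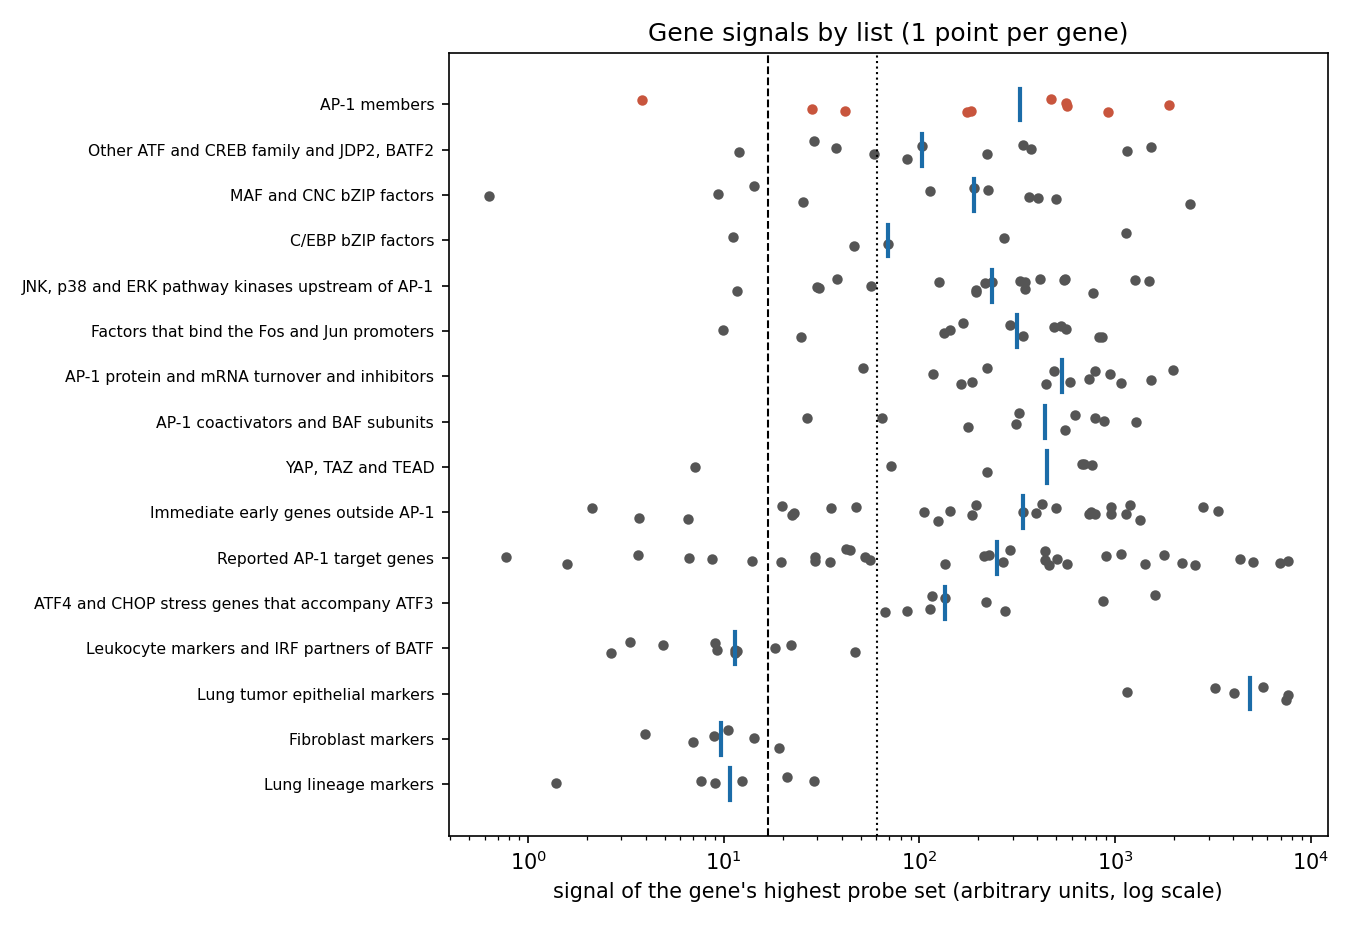
Signal of each gene's brightest probe set (horizontal axis, arbitrary units, log scale) by list, 1 point per gene, with AP-1 in red, blue bars at the list medians, and the background line (dashed) and upper limit (dotted). The AP-1 median is 327 and its lowest point is Batf at 3.81, while the epithelial markers all lie at or above 1150 and the fibroblast markers all at or under 19.3.

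The cell type on the label was checked with markers. As a yardstick, 63.3% of all genes exceeded the line and 47.5% also the upper limit. All 6 epithelial markers passed the upper limit, with Krt18 at 7600.2, Krt8 at 7422, Krt7 at 5723, Cdh1 at 4069.5, Epcam at 3219 and Cldn4 at 1150 on their brightest probe sets. None of 6 fibroblast markers did, with Col1a2 at 19.3 the only one above the line, while Lum, Col1a1, Dcn, Col3a1 and Pdgfrb read at most 14.4, 10.4, 8.86, 6.998 and 3.95. Nor did any of 6 lung lineage markers. Sftpb at 28.9 and Sftpc at 21.1 passed the line, while Ager, Foxj1, Nkx2-1 and Scgb1a1 read at most 12.4, 9.02, 7.66 and 1.38. The lung origin of the cells is therefore given by the label and not shown by these lineage markers. Among 11 leukocyte markers and IRF partners of BATF, 3 exceeded the line but none exceeded the upper limit. Csf1r, the macrophage growth factor receptor gene, read 47.1, 44.3 and 29.4 on its 3 probe sets, Cd8a reached 22.0 on 1 of 5 and Irf8 18.4 on 1 of 2. Irf4 read at most 8.998, Ptprc, the pan-leukocyte gene, at most 11.5, and the T cell genes Cd3e and Cd4 at most 3.34 and 2.65. Irf4 was thus, like Batf itself, not above background, and Irf8 was just above the line, whereas the JUN partners of BATF passed the upper limit.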

How the data were processed

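RNA of 1 sample (KR Primary, 1 group) was measured on 1 array. The deposited table holds 1 intensity for each probe set, on a linear scale. Per the submitters' processing notes, the authors used Affymetrix Expression Console, and how it scaled or corrected the intensities is not given in the sources used here. No detection call was used.

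Of 45101 probe sets, 64 were controls, 932 named several genes and 9160 had no gene name here. The remaining 34945 named 1 gene in the platform's annotation and were used. Symbols were updated by gene ID with RefSeq (GRCm38.p6) for 34741 of them. No probe set with several names listed an AP-1 gene.

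Background was set by 124 probe sets of 111 genes (43 keratin-associated, 44 olfactory receptor, 34 vomeronasal and 3 bitter taste), and the line was the 95th percentile of their log2 signals. A gene was above it if at least 1 probe set was. The number of arrays limits the precision: there is no replicate, so no test was run. Promoters are RefSeq's, and 9 of 10 members matched. The calling code was run on simulated data beforehand, with genes placed far above background or drawn from it. That run checked the code and did not cover weak signals such as those of Fosb and Batf3. Of 206 memberships written into 15 related lists, 187 were measured, covering 181 different genes, and the others were not analysed here. Beside all AP-1 genes, the text names the 3 brightest and 2 dimmest genes of each list (5 and 4 for immediate early and target genes, all for lists of up to 6). Irf4, Ptprc and Fam71a fall outside that rule and were chosen after the values were seen. The members and lists were chosen with earlier results of these data known. Alternatives changed the line, the background set, the probe sets admitted, the rule that combines them and the symbols. Python 3.11.15, numpy 2.4.6, pandas 2.3.3 and matplotlib 3.10.9 were used.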

Additional observations from a re-analysis of the deposited data

How the results depend on the processing

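Of the 10 AP-1 genes, the count above the line was 9 in the text and stayed within 1.5 times of it under all 9 alternatives chosen at the outset, with Fosb reversed under 2 of them. Its log2 signal over the line was 0.75 in the text, -0.35 with the line at the 99th percentile (36.0) and -0.46 with the line at the median plus 2 scaled deviations (39.0). Against smell and taste receptors alone, whose highest signal was 19.2, Fosb and Batf3 passed the upper limit, by 0.56 and 1.11 on the log2 scale. So did 2 genes of the lung lineage list, 2 of the leukocyte list and 1 of the fibroblast list, where none did in the text. Where every probe set had to pass, Fosl2 and Jund fell short of the upper limit, at -0.43 and -1.82, and the different genes of the related lists above it numbered 75, against 116 in the text. That rule asks more of genes with many probe sets. Probe sets annotated to a RefSeq mRNA, an alternative chosen after seeing the data, measured only 6 of the 10 members, of which 5 passed the line and 3 the upper limit. With the second highest background probe set (42.2) as the limit, also chosen after seeing the data, the count above it was 7, as in the text. Batf3 at 41.6 lay just under that limit. The third highest background signal was 21.0, and both Fosb at 28.3 and Batf3 exceeded it. Of 270 counts of single lists under these 9 alternatives, 243 were within 1.5 times of the value in the text, 23 were lower and 4 higher by more. Part of that steadiness was fixed in advance. The upper limit stayed at 60.6 where only the line changed and where keratin-associated genes alone were the background. Counts above the upper limit could not change under those alternatives, and counts near the size of their list could not rise 1.5 times. The larger drops among the kinase, promoter-binding, turnover, coactivator, ATF, MAF and C/EBP lists came where every probe set had to pass, and those values stand beside the counts. The other drops and all 4 rises were in the fibroblast, leukocyte and lung lineage lists. Their small counts above the line, 1, 3 and 2 in the text, were 0, 1 and 0 with the line at the 99th percentile. No paired analysis was possible because there was 1 sample. Signals near the line, those of Fosb, Batf3 and the dimmer Jund probe set, are where signal over background limits what can be said.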

Other observations

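The basic leucine zipper genes not described above, a list added after seeing the data, were also divided. Of 12 such genes, 9 exceeded the line (75%) and 7 also the upper limit (58.3%), with a median of 103. Of all genes, 63.3% and 47.5% did. Of genes with 2 probe sets, 72.4% and 54.8% did, and the shares of this list lie near these. Xbp1, the effector of the unfolded protein response and of secretory cells, passed the upper limit on all 4 probe sets and reached 1400.2. Creb3, a factor held in the membrane of the endoplasmic reticulum, reached 419, and Crebzf 296 with all 5 probe sets above the line. Hlf, a circadian output factor, read at most 7.48, and Creb3l4 read 7.23, both not above background.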
